A study of Mus musculus with 6 samples.

Results

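The loci described here belong to 34 genes that mark cell types other than the intestinal epithelium: 15 of immune cells, 12 of stromal cells (fibroblasts and smooth muscle), 4 of endothelium and 3 of neurons and glia. A locus was taken as every consensus ATAC-seq peak whose annotated gene is among the 34, at most 50 kb from the transcription start site (TSS) used for that gene. A peak at the promoter of a neighbouring gene can thus be named for a marker gene, as the Prmt2 promoter is for S100b. This gave 111 of the 156733 peaks, at 26 of the 34 genes (76.5%, against 73.1% of protein-coding genes). The median was 2 peaks per gene in both sets. No consensus peak was assigned in this window to Ptprc, Cd8a, Ms4a1, Ikzf1, Lcp2, Col3a1, Lum or Elavl4. The genes were taken by name, with no threshold on counts.

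The libraries came from organoids, epithelial cultures grown from the small intestine of untreated C57BL/6JRj mice, in which transposase Tn5 had cut open chromatin. The young group holds 3 libraries from mice aged 2 to 3 months and the aged group 3 from mice aged 20 to 22 months. Replicates 1, 2 and 3 were at passage 4, 3 and 2 in both groups. Whether the 3 cultures of each age derive from different mice is not stated, and the p-values therefore rest on differences among these cultures that may be technical. In bulk libraries, fewer cells of a type and less open chromatin per cell cannot be told apart.

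As background, organoids are started from crypts and kept in a medium that favours epithelial stem cells, while leukocytes, fibroblasts, vessels and enteric glia of the gut wall are not maintained by it. In their own lineages the marker genes have open promoters and enhancers, bound by factors of that lineage such as the ETS protein encoded by Spi1 in myeloid cells. A locus can also carry open chromatin in a cell that does not express the gene, as at CpG-rich promoters, at promoters of neighbouring genes, or at elements that serve another gene.

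Total counts in peaks ranged from 7278161 in young replicate 1, the shallowest library, to 26093521 in aged replicate 3. Levels are given as CPM, counts scaled to a fixed library total after edgeR's TMM normalization. A single count stood for 0.139 CPM in young replicate 1 and for 0.0375 to 0.0524 CPM in the others, which limits the precision at weak peaks, and this covers counting error only. The labelled epithelial identity was checked first: 16 of 20 epithelial reference genes (80%) had a peak within 1 kb of the TSS, against 47.4% of protein-coding genes. These peaks had a median of 40.6 CPM per kb of peak, beside 21.0 for protein-coding genes. As examples, the adhesion molecule gene Epcam had 39.1 CPM per kb, just under that median of 40.6. The keratin gene Krt8 (129.1) and the tight junction gene Cldn3 (63.7) lay above it. These examples do not cover the lower part of the range or the reference genes without such a peak.

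Promoter sequences are shown first because CpG content was, with exceptions, higher in the few marker promoters under a peak than in the rest. RefSeq promoter windows (build GRCm38.p6) were found for 20 of the 34 genes, as 26 windows, and the 250 bases before each start are used, 5' to 3', with every CpG dinucleotide in capitals. The first 3 lay under a consensus peak and the last 3 did not: Kdr, the VEGF receptor (chr5:75978456-75978705, minus strand), Ikzf1, the lymphoid factor Ikaros (chr11:11685675-11685924, plus), S100b, a glial calcium-binding protein (chr10:76253586-76253835, plus), Ptprc, the pan-leukocyte phosphatase (chr1:138175306-138175555, minus), Col3a1, a fibrillar collagen (chr1:45311288-45311537, plus), and Col1a2, a chain of type I collagen (chr6:4505368-4505617, plus).
Kdr: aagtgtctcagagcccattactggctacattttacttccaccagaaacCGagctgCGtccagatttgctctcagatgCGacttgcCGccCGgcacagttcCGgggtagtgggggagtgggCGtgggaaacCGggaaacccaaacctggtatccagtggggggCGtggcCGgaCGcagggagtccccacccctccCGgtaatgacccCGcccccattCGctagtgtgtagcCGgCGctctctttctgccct
Ikzf1: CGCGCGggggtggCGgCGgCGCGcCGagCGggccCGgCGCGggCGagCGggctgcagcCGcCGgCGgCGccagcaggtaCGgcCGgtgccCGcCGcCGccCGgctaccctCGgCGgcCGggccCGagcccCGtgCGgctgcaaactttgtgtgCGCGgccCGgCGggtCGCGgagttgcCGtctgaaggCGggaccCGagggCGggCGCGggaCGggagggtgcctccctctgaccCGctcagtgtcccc
S100b: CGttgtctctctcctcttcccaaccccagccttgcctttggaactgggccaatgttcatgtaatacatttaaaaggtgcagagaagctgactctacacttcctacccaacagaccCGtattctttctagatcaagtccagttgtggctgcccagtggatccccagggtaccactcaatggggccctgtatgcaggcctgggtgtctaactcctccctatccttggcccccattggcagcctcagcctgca
Ptprc: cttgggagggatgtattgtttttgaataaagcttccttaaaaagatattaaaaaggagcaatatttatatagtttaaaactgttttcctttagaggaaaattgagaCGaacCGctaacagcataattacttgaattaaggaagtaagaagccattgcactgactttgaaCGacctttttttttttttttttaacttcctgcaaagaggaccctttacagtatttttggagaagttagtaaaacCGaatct
Col3a1: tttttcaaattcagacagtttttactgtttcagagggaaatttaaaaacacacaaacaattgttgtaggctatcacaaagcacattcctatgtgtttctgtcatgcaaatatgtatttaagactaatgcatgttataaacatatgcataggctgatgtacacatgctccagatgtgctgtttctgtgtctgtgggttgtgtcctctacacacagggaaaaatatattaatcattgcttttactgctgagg
Col1a2: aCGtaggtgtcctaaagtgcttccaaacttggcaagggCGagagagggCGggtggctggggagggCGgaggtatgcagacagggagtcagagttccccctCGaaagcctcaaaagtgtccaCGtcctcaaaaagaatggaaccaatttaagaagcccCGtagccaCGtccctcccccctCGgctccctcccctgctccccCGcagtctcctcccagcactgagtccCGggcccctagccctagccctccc

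These windows held 16 CpG (Kdr), 44 (Ikzf1), 2 (S100b), 4 (Ptprc), 0 (Col3a1) and 11 (Col1a2). Kdr and Ikzf1 are thus CpG-rich and under a peak, Ptprc and Col3a1 are poor in CpG and under none, and S100b and Col1a2 break the pattern in either direction. Of the 26 windows, 6 (23.1%) lay under a peak, against 13060 of 21263 (61.4%) protein-coding windows. The other open windows belonged to Twist1 with 18 CpG, to Cd3g with 4 and to 1 of the 4 Elavl4 windows, with 14 CpG. A window counted as under a peak, or open, if any of its bases overlapped one. The Ikzf1 and S100b windows lay wholly within a peak. Those of Kdr, Twist1, Cd3g and Elavl4 were covered only in part.

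The share open was read within classes of CpG content. Of protein-coding windows with 10 or more CpG 92.1% lay under a peak, and of those with 0 to 2 CpG 12.6%. The marker windows stood at 4 of 5 and 1 of 9 in these classes. In the classes between, they stood at 1 of 8 with 3 to 5 CpG (31.7% of all) and at 0 of 4 with 6 to 9 CpG (62.9% of all). The 4 closed windows with 6 to 9 CpG were those of Cd3e (7), Cd79a (6), Itgam (6) and Vim (8).

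**Figure D1:**
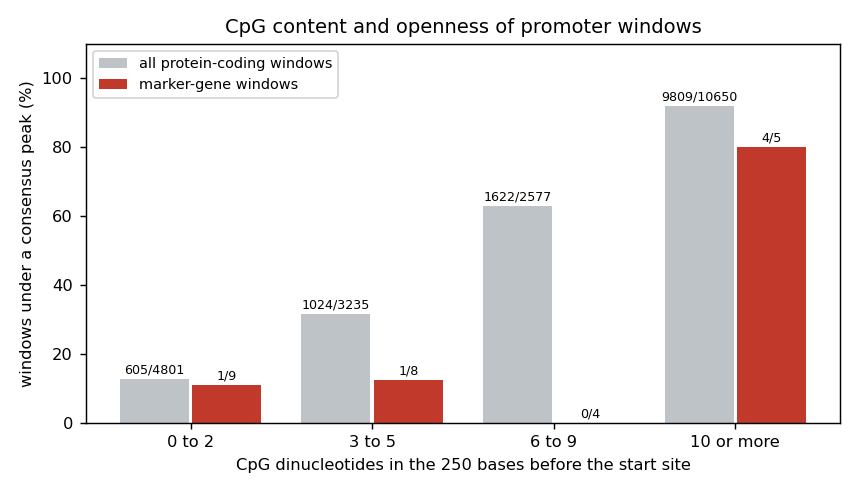
Share of promoter windows (250 bases before the start) under a consensus peak, in percent, by number of CpG dinucleotides, for all protein-coding windows (grey, marker genes included) and the 26 marker-gene windows (red), with counts above the bars. Overlap of any base with a peak counts. Marker windows with 10 or more CpG were open in 4 of 5 cases, those with 6 to 9 in 0 of 4.

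Short motifs were searched on both strands of the same windows. GGAAGT, a core that ETS factors bind, occurred in 10 of the 26 (38.5%), 7 of them among the 13 immune windows, and in 20.4% of protein-coding windows. TATAAA occurred in 4 (15.4%, against 11.6%) and CCAAT in 7 (26.9%, against 35.4%). Windows of Ptprc and of Elavl4 overlap, so a motif can be counted more than once. A match is a description of letters and not a bound site.

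The marker loci were weakly open. Their 111 peaks had a median of 4.95 CPM per kb, against 6.03 over all peaks and 25.98 over the 191 peaks of the epithelial reference genes. Peaks under 1 CPM made up 44.1% of them (37.99% of all peaks, 14.1% of epithelial ones), and 6 of 111 exceeded 10 CPM (5.41%, against 17.005% and 49.7%). They lay mostly in introns (47 peaks) and between genes (33), with a share in introns (42.3%) beside 42.5% of all peaks, with 12 of the promoter-TSS class, 11 in exons and 8 at transcription termination sites. Of the 111, 10 lay in a gene other than the one that names them.

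At promoters, 12 of 34 marker genes (35.3%) had a peak within 1 kb of the annotated TSS, against 47.4% of 21900 protein-coding genes. The median of these 12 stood at the 18.5th percentile of 10391 protein-coding promoter peaks by CPM, and the 16 epithelial reference promoters at the 77.7th. Immune genes had such a peak at 2 of 15, stromal genes at 7 of 12, endothelial genes at 1 of 4 and neural and glial genes at 2 of 3. The annotated TSS can be that of a minor transcript, so RefSeq gene ends were checked as well. A peak lay within 1 kb of the 5' end of the RefSeq gene at 16 of the 32 genes whose strand could be told, among them Ikzf1, Elavl4, Cd3e and Tek, which had none by the annotation.

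**Figure D2:**
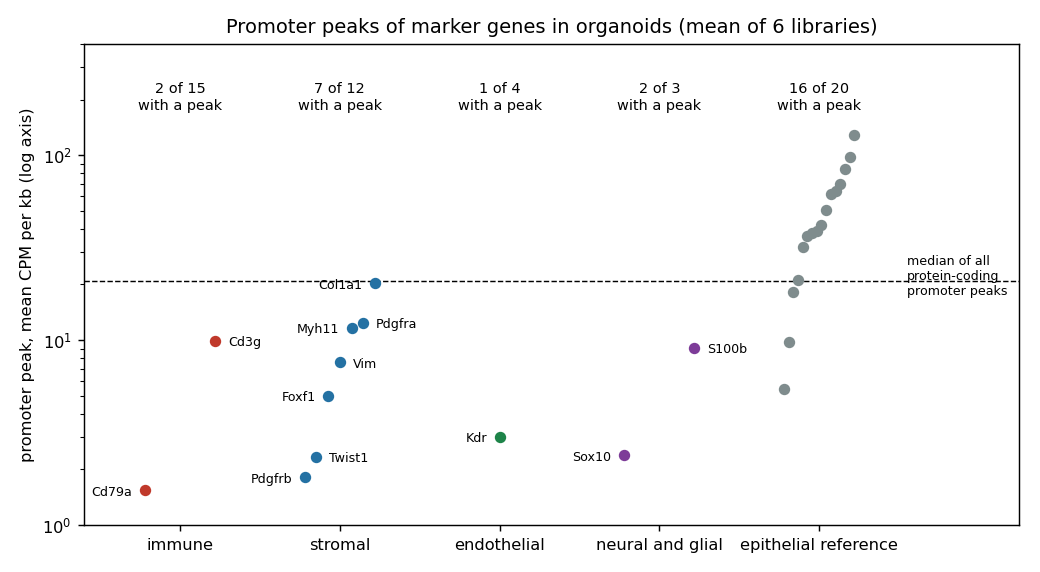
Mean CPM per kb (log axis) of the strongest peak within 1 kb of the annotated TSS for each marker gene that has one, by cell class. Epithelial reference genes are in grey. For Col1a1 this is the short peak, not the one at its RefSeq 5' end. Each point is 1 gene averaged over 6 libraries, and every marker promoter lies under the dashed line, the median of all protein-coding promoter peaks, with Col1a1 next to it.

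Of the immune genes 2 of 15 had a promoter peak by the annotation, and 4 had one at the RefSeq 5' end (Cd3e, Cd3g, Cd79a and Ikzf1). Whole gene spans without any consensus peak were found for 6 of the 34 genes (17.6%, against 22.5% of protein-coding genes and 0 of 20 epithelial reference genes). They were the immune genes Ptprc, Cd8a (a T cell co-receptor), Cd79a (a B cell receptor signalling chain), Ms4a1 (the B cell surface protein CD20) and Lcp2 (an adaptor of T cell signalling), and the stromal Lum (lumican). A span without a peak means that no peak was called there, not that its count was 0, and such stretches were not counted in the deposited table. Around Lum no peak lay within 50 kb of the gene on either side, around Ptprc 2 did and around Lcp2 2.

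T and B cell genes had weak peaks. The promoter peak of Cd3g, a CD3 chain, held 1.95, 1.80 and 1.15 CPM in young replicates 1 to 3 and 1.40, 1.38 and 1.27 in aged ones. The groups overlap, and at 9.88 CPM per kb this was the most open immune promoter. The strongest Cd3e peak per kb lay 1.12 kb before the TSS (5.75 CPM per kb), that of Cd3d in its exon 5 (4.44), that of Cd4 at a transcription termination site (4.49), and the Cd79a promoter peak reached 1.54. Lck, the T cell kinase, had 1 peak 5.36 kb before the annotated TSS (6.17 CPM per kb). Ikzf1 had 1 peak in its span, over its CpG-rich first promoter, at a mean of 3.74 CPM, which the annotation names after the noncoding Gm11999.

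Among myeloid loci the strongest site lay away from the gene. An intergenic peak 22.8 kb before Adgre1, a macrophage surface receptor, held 11.4, 8.77 and 9.27 CPM in young and 7.27, 8.48 and 7.43 in aged libraries. All aged values lie under all young ones, and at 40.1 CPM per kb the peak exceeded 93.5% of all peaks. The best peaks of Csf1r, the colony-stimulating factor receptor, and of Spi1 were at 8.77 and 5.08 CPM per kb, and that of Csf1r lies in intron 16 of the neighbouring Pdgfrb. The Itgam integrin gene had 2 weak intronic peaks (at most 6.31 CPM per kb).

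Peaks named for another gene can lie inside an immune gene. The strongest in the RefSeq span of Spi1 had 20.4 CPM and is named after Mybpc3. In the span of Csf1r a peak of 15.6 CPM is named after Mir6983, and in that of Itgam a peak of 11.7 CPM after Itgax. In the span of Lck a peak of 7.63 CPM is named after Mir8119. All 4 genes thus hold a site with more CPM than any peak named for them. These are outside the 111, since membership follows the named TSS.

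Stromal genes had promoter peaks at 7 of 12. Pdgfra, the receptor that marks gut fibroblasts, had a promoter peak of 19.9, 19.5 and 15.9 CPM in young and 18.3, 22.7 and 18.8 in aged libraries. These ranges overlap, and per length (12.4 CPM per kb) the peak lay under the 21.0 that is the median of protein-coding promoter peaks. It lies at another start site than the RefSeq 5' end of Pdgfra, where the peak held 1.73 CPM. Col1a1, the other type I collagen chain, had a short peak 0.469 kb after the annotated TSS (20.3 CPM per kb). A broader one (9.99 CPM) lay 1.58 kb before that TSS. This broader peak is inside the RefSeq gene, within 1 kb of its 5' end, so the annotated TSS of Col1a1 is an internal start.

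Vim, which encodes the intermediate filament of mesenchymal cells, had peaks on both flanks of its start, at -538 bp (8.96 CPM per kb) and 438 bp (7.57), and its promoter window, which lies between them, was under neither. Promoter peaks of the smooth muscle myosin Myh11 (11.6 CPM per kb), the mesenchymal transcription factors Foxf1 (4.99) and Twist1 (2.34), and the pericyte receptor Pdgfrb (1.81) completed the 7. The best peaks of Pdgfrb (9.41) and of the proteoglycan gene Dcn (9.44) were intronic, and the best of Col1a2 was intergenic (4.49). Col3a1 had 2 peaks in its span, of 0.335 and 0.548 CPM, named after another transcript.

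The most abundant of the 111 peaks was intergenic, 15.5 kb before Acta2, which encodes smooth muscle actin (chromosome 19, 34270229 to 34271480). It held 58.1, 42.1 and 51.6 CPM in young and 51.5, 48.5 and 50.1 in aged libraries, with the aged values inside the young range. Within the gene Acta2 had peaks of at most 3.13 CPM and none at its RefSeq start.

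At endothelial genes, too, the strongest peak lay outside the gene. Pecam1, an adhesion molecule of endothelium and leukocytes, accounted for 19 of the 27 endothelial peaks. Its strongest, 25.3 kb beyond the annotated TSS and intergenic (chromosome 11, 106637777 to 106638191), held 31.4, 28.5 and 30.9 CPM in young and 27.9, 26.9 and 29.6 in aged libraries. These values overlap, and 70.3 CPM per kb is the highest of the 111 peaks. The RefSeq 5' end of Pecam1 had no peak within 1 kb. Kdr had 1 peak, over exon 1 (2.99 CPM per kb), the vascular cadherin gene Cdh5 3 peaks (at most 2.53) and the angiopoietin receptor gene Tek 4 within 50 kb (at most 5.57). A stronger peak in the span of Tek (14.5 CPM) lies 52.2 kb before the annotated TSS, beyond the window.

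Of the neural and glial genes, S100b had 8 peaks, Sox10, the glial lineage factor, 8 and Elavl4, a neuronal RNA-binding protein, none in the window. The strongest S100b peak, 16.0 kb before its TSS (23.4 ± 2.72 CPM in young and 22.4 ± 0.692 in aged, SD, n = 3), is the promoter of Prmt2, a methyltransferase gene. The S100b promoter peak itself held 5.86, 7.57 and 6.08 CPM in young and 7.63, 6.33 and 6.28 in aged libraries, which overlap. Of the Sox10 peaks 5 lie in introns of the noncoding Gm10863, and none exceeded 3.79 CPM per kb. The promoter-proximal Sox10 peak, in exon 2, held 0.629 to 1.16 CPM over the 6 libraries.

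Between aged and young organoids, 1 marker peak changed. A peak in intron 2 of S100b, 4.33 kb after the TSS (chromosome 10, 76258014 to 76258345), held 5.44, 4.39 and 5.13 CPM in young and 9.79, 9.77 and 8.82 in aged libraries (raw counts 39, 117 and 98 against 217, 213 and 229). Every aged library lies above every young one, and the mean went from 4.99 ± 0.541 to 9.46 ± 0.557 CPM (SD, n = 3). The peak rose 1.94-fold (log2 0.95, SE 0.15, edgeR quasi-likelihood adjusted p = 1.99e-04), the 294th smallest p of 132055 tested peaks. Its call held under each of the 12 alternatives run, with log2 values of 0.79 or more and adjusted p of 1.96e-07 to 0.0394, the last in libraries thinned to the depth of young replicate 1.

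None of the other 7 S100b peaks was called. The S100b promoter peak had a log2 fold change of 0.02 (SE 0.16), the Prmt2 promoter -0.04 (SE 0.10), the peak at the 3' end of the gene 0.17 (SE 0.21) and the peak 17.6 kb downstream, at a promoter of Dip2a, -0.02 (SE 0.19). Whether the intron peak differs from its neighbours in response was not tested. For passage it was not called, with a log2 value of 0.05 per passage (edgeR adjusted p = 0.997). Summed over the locus, S100b had a log2 fold change of 0.12 (edgeR adjusted p = 0.592).

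**Figure D3:**
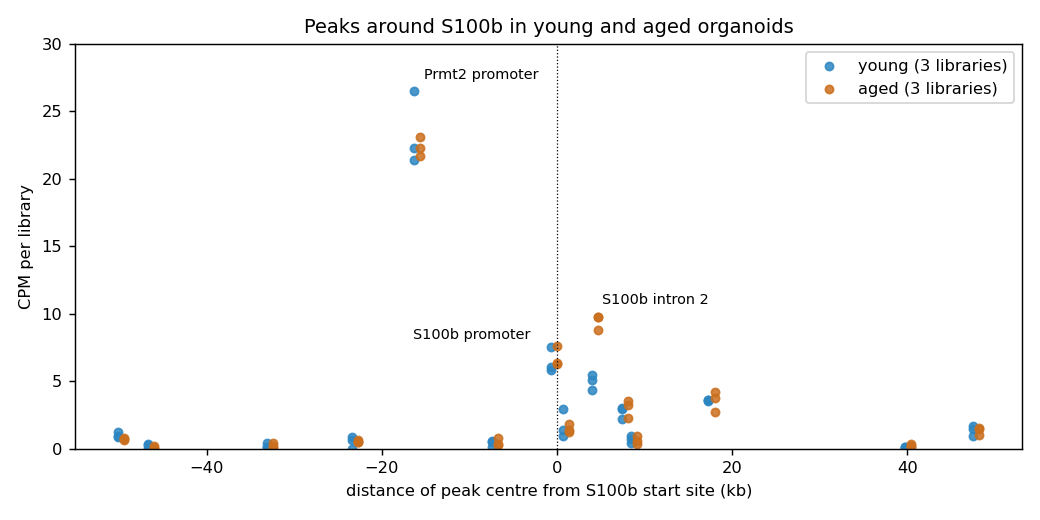
CPM per library of every consensus peak within 50 kb of S100b against distance from its TSS in kb, young in blue and aged in orange, 3 libraries each. At the intron 2 peak the aged libraries (8.82 to 9.79) lie above the young ones (4.39 to 5.44), while at the S100b and Prmt2 promoters the colours overlap.

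The remaining marker peaks passed no test. Of the 111 peaks 94 had enough counts to be tested, and 17 were under the count filter. Of the 94, 1 was called higher and 0 lower (1.06%), which is near the 1.13% called over all tested peaks (0.619% higher and 0.51% lower). With the replicate block the same peak was called, and 2.67% of all. By edgeR's unadjusted p under 0.05 the members counted 10 (10.6%), and all peaks 9.71%. All 3 aged libraries lay above all 3 young at 9 of the 94 (9.57%, against 7.67% of all tested peaks) and below at 5 (5.32%, against 7.08%). The median log2 fold change was 0.02, beside -0.01 over all tested peaks.

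**Figure D4:**
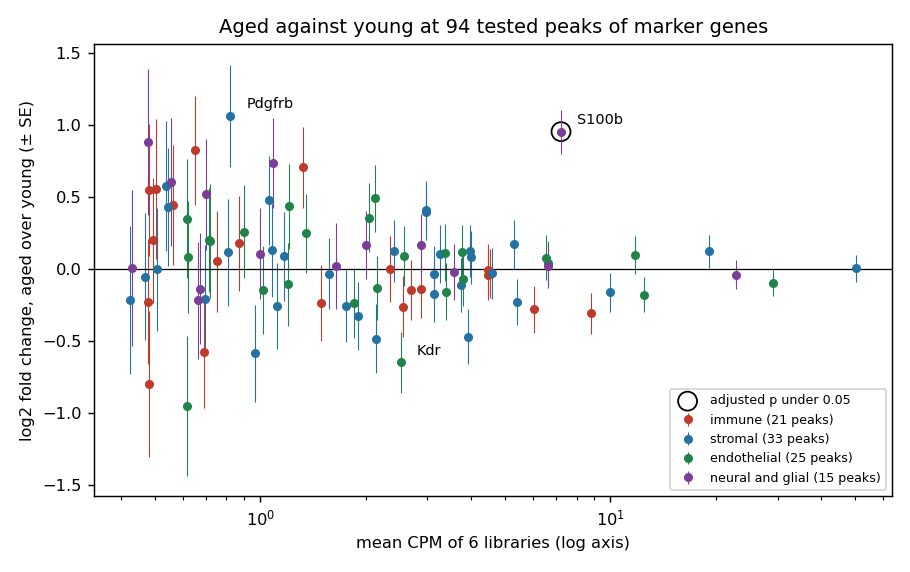
Log2 fold change of aged over young (± SE) against mean CPM (log axis) for the 94 tested marker peaks, coloured by cell class. The circled S100b peak (0.95) is the only one with an adjusted p under 0.05, and the uncalled peaks range from -0.95 to 1.06, most widely below 1 CPM.

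The 2 next smallest p-values belonged to receptor genes and went in opposite directions. The Kdr exon 1 peak (chromosome 5, 75977804 to 75978644) held 2.79, 3.67 and 2.67 CPM in young and 1.85, 2.20 and 1.93 in aged libraries. Its values do not overlap, with a log2 fold change of -0.65 (SE 0.21, edgeR adjusted p = 0.187, with 0.0874 to 0.663 over the alternatives, the lowest with the replicate block). A peak in intron 2 of Pdgfrb, 1.45 kb after the TSS (chromosome 18, 61046459 to 61046846), held 0.558, 0.562 and 0.471 CPM in young and 0.767, 1.28 and 1.27 in aged libraries. It rests on 4, 15 and 9 young and 17, 28 and 33 aged counts, with a log2 fold change of 1.06 (SE 0.36, edgeR adjusted p = 0.198, with 0.0614 to 0.750 over the alternatives, the lowest with the block), and it was not tested in thinned libraries.

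The other peaks among the 10 smallest p-values had adjusted p of 0.342 to 0.504 by edgeR. With higher aged means these were 2 Cd3e peaks (log2 0.70 in exon 8, 0.82 before the gene), peaks in intron 1 of Gm10863 named for Sox10 (0.74), in intron 8 of Tek (0.49) and in intron 19 of Col1a1 (0.41). With lower aged means they were a peak in intron 2 of Dcn (-0.47) and the Adgre1 peak at -22.8 kb (-0.31). At the most abundant sites the estimates were close to 0 with small errors: 0.00 (SE 0.09) for Acta2 at -15.5 kb, -0.10 (SE 0.09) for Pecam1 at 25.3 kb and 0.12 (SE 0.11) for the Pdgfra promoter.

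**Figure D5:**
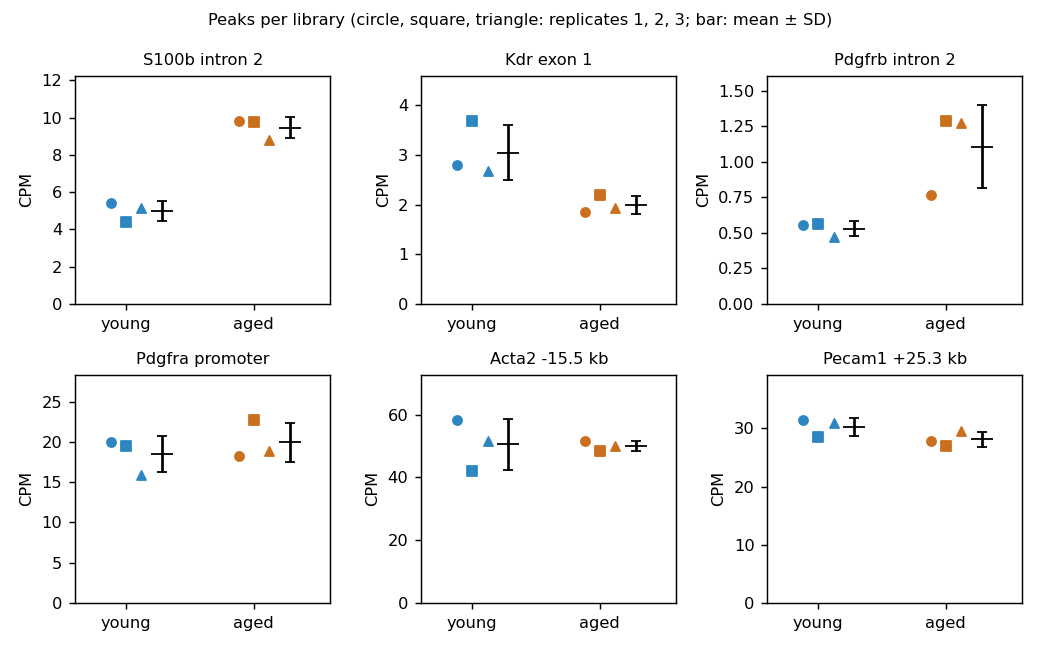
CPM of 6 marker peaks in each library, young in blue and aged in orange, with circles, squares and triangles for replicates 1, 2 and 3 and a bar for mean ± SD (n = 3). The groups separate at S100b, Kdr and Pdgfrb, of which only S100b passed the test, and overlap at Pdgfra, Acta2 and Pecam1.

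Counts summed over all peaks of a gene within 50 kb were tested as well, since they hold more counts where a gene has several peaks. Kdr and Twist1 have 1 peak each, so their sums repeat the test of that peak. Of 29256 summed loci tested, edgeR called 1.39%, and of the 26 marker loci it called 0, with 3 at an unadjusted p under 0.05 (11% of all loci). DESeq2 also called 0, with 2 under 0.05, and the replicate block 0, beside 3.21% of all loci. The smallest were Kdr (log2 -0.66, SE 0.21, edgeR adjusted p = 0.169), Adgre1 (-0.23, SE 0.10, 0.363), Pdgfrb (0.26, SE 0.12, 0.421), Sox10 (0.35, SE 0.17, 0.471) and Twist1 (-0.50, SE 0.25, 0.480). Single libraries carried the last 2: without young replicate 2 Twist1 was at -0.08 (0.915), and without young replicate 3 Sox10 was at 0.12 (0.905). With peaks within 10 kb alone, Pdgfrb was at 0.75 (0.142) and Sox10 at 0.21 (0.765). The aged libraries lay above the young at 1 locus and below at 3 (7.7% and 7.97% of all tested loci).

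Class totals were compared without a test. All 111 peaks together held 362, 353 and 346 CPM in young and 355, 358 and 352 in aged libraries, while the 20 epithelial reference genes held 3047 to 3477 CPM over all libraries. A few sites outside the marker genes weigh on the sums. Without the strongest Acta2 and Pecam1 peaks and the Prmt2 promoter, the marker total was 246, 261 and 242 CPM in young libraries. In aged libraries it was 252, 260 and 250. Stromal peaks summed to 146 to 151 CPM in young and 147 to 150 in aged, and endothelial peaks to 103 to 105 and 102 to 104. Neural and glial peaks summed to 44.8 to 55.6 and 52.6 to 57.1. Immune peaks summed to 49.9, 51.6 and 51.6 CPM in young and 46.7, 48.9 and 48.0 in aged, the one class whose groups did not overlap. Of all tested summed loci, 7.97% had all 3 aged values below all 3 young ones. Those are sums for single genes, so this share is not a background for a class sum, for which none was computed. The immune difference lay in the Adgre1 peaks, which summed to 22.3, 18.7 and 21.3 CPM in young and 17.1, 18.2 and 17.4 in aged. Adgre1 was singled out after these values were seen. The other 22 immune peaks summed to 27.6, 32.9 and 30.3 against 29.7, 30.7 and 30.6, which overlap. A wider list of 30 further immune genes had 0.0296% ± 8.52e-04 of counts in young and 0.0303% ± 6.51e-04 in aged libraries (SD, n = 3).

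Passage was read in the same way, since each passage holds 1 young and 1 aged library. Passage runs with replicate number and culture code, so a trend with passage cannot be told apart from differences between cultures. EdgeR called 0 of the 94 marker peaks and 0.00303% of all tested peaks for a trend with passage. With an unadjusted p under 0.05 there were 3 (5.27% of all): Tek at -1.45 kb (log2 -0.95 per passage, adjusted p = 0.651), Cd79a at -785 bp (-0.99, 0.683) and S100b at 1.04 kb (0.36, 0.948). The first 2 had lower levels at higher passage numbers and the last a higher one. The Cd79a peak rests on few counts: 0, 18 and 20 in young replicates 1 to 3 and 5, 6 and 17 in aged ones. Its 0 is in the shallowest library.

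Further markers of the same 4 classes were taken as a wider list of 78 genes. Of these, 35 had a promoter peak, at a median of the 16.8th percentile, beside 18.5 for the 34. By class, 10 of 30 immune genes had one (median percentile 7.76), 13 of 20 stromal (14.4), 4 of 14 endothelial (18.2) and 8 of 14 neural and glial genes (33.9). Peaks of the further neural and glial genes had a median of 10.6 CPM per kb, above the 6.03 of all peaks, unlike those of the other 3 classes (4.04 to 5.62). Tests were made at 233 peaks, of which edgeR called 2 higher and 0 lower, both near Il7r, the receptor chain through which lymphocytes receive interleukin signals (1.13% of all tested peaks were called). The larger, an intergenic peak 27.4 kb before Il7r (chromosome 15, 9557077 to 9557515), held 2.23, 1.50 and 2.15 CPM in young and 6.27, 7.02 and 7.89 in aged libraries. No aged value comes near a young one, and the peak rose 3.78-fold (log2 1.92, SE 0.20, edgeR adjusted p = 7.72e-08, at most 1.28e-05 over the alternatives). A second peak, at -34.2 kb, rose as well (log2 1.70, SE 0.35, adjusted p = 0.0050), and this call was lost without young replicate 3 (0.0584, range over the alternatives 6.16e-04 to 0.0584), and at the depth of young replicate 1 the peak had too few counts to be tested. Il7r was the only summed locus of the wider list to be called (log2 1.71, SE 0.15, edgeR adjusted p = 6.84e-07). Both peaks were singled out after their values were seen. Neither lies in the gene, and the other peaks of the list, immune ones included, were not called. At the epithelial reference genes edgeR called 0 of 182 tested peaks. By unadjusted p under 0.05 there were 14 higher and 7 lower, beside 9.71% of all tested peaks in both directions together. Of the 182 log2 fold changes 97 were positive and 85 negative, with a median of 0.015.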

How the data were processed

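ATAC-seq libraries of 6 organoid cultures (3 young, 3 aged) were analysed from the deposited table of counts over consensus peaks and its annotation. GRCm38 is the build, and BWA 0.7.17-r1188, MACS2 2.2.7.1 and featureCounts 2.0.1 are among the tools, per the submitters' processing notes. The values the authors deposited are whole-number counts that differ in total between libraries, and were used as raw counts. The Tn5 offset, the handling of duplicates and the counting of fragments or reads were not given in the sources used here. Each peak's annotated gene and its distance to the TSS were used as deposited.

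The markers and lists were chosen with earlier results of these data known. Tests used edgeR 4.0.16 (R 4.3.3): quasi-likelihood with robust dispersion, TMM, filterByExpr (minimum count 10) and Benjamini-Hochberg adjustment over all tested peaks or loci at 0.05, on all 6 libraries by age alone. Log2 fold changes are aged over young. Their SE in edgeR fits is the absolute log2 value divided by the square root of the quasi-likelihood F statistic. Passage entered as a number beside age. Locus sums are fitted over all genes, with their own library totals. Alternatives were RLE factors, library totals, no filter, DESeq2 1.42.0, a replicate block, thinning, a 10 kb window and leaving out each library. Peaks named were promoter peaks, the most open peak per gene, called peaks, the 10 smallest p and the 5 smallest locus p. Same-numbered libraries share a culture code and passage in their titles (the descriptions give 1 code to all) and were taken as pairs. Deviations from group means correlated within pairs at 0.0909, 0.167 and 0.181. The code was checked on simulated counts.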

Additional observations from a re-analysis of the deposited data

How the results depend on the processing

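The S100b call and the count of 1 called marker peak were the same under each of the 12 alternatives (RLE factors, library totals, no filter, DESeq2, replicate block, thinning, each library left out), as were the counts of 0 for summed loci and for passage under theirs. Over all tested peaks the 1491 calls became 883 with DESeq2, 3523 with the replicate block, 648 in thinned libraries and 830 to 1902 with 1 library left out (830 without aged replicate 3); the block changed no marker call. The median percentile of the 12 marker promoters, 18.5 by CPM, was 20.7 by CPM per kb. With a 10 kb window the marker peaks' share of counts went from 0.0355% to 0.0150% in young and from 0.0354% to 0.0152% in aged libraries, by construction, since 58 of 111 peaks remained. Of 192 values of the other 11 named peaks and 6 named loci under alternatives, 191 kept their direction and stayed called or uncalled, and 1 did not, the second Il7r peak; 5 of these peaks had too few counts for the thinned test. Depth limits peaks under 1 CPM most in young replicate 1, where 1 count is 0.139 CPM.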
